A study of Caenorhabditis elegans with 2 samples.

Results

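The 2 piRNA gene clusters of Caenorhabditis elegans chromosome IV held 257 of the 7065 peaks at which the zinc-finger transcription factor SMA-9 was mapped in L2 larvae. A member was a peak of the list kept by IDR (irreproducible discovery rate, which asks whether peaks rank alike in the replicates) whose summit lay between 4.5 and 7 Mb (the left cluster) or between 13.5 and 17.2 Mb (the right cluster) on build ce11. The left cluster held 165 members and the right cluster 92, and the rest of chromosome IV held 765 IDR peaks. SMA-9 is a Schnurri protein that works with the Smad proteins of a BMP-like pathway. It was precipitated with an antibody against GFP from whole hermaphrodites of strain LW1254, whose integrated transgene jjIs1254 (sma-9C2::gfp with unc-119(+)) sits in the unc-119(ed4) background. The larvae were taken 22 hours after synchronization by starvation at L1, in 2 biological replicates of 1 line, with no second condition. The labels name no promoter for the transgene, and the control experiment and worms without the tag were not analysed here. Each replicate is a lysate of whole worms, so fewer cells of a type with SMA-9 and less SMA-9 on the site in each cell cannot be told apart.

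In this species piRNAs are called 21U-RNAs: they are 21 bases long, begin with U, and each comes from its own very short transcription unit. Most of these units lie between and inside the protein-coding genes of chromosome IV and carry an upstream motif with the core CTGTTTCA, which marks them for RNA polymerase II in the germ line. There the mature piRNAs load the Argonaute PRG-1, which scans germline transcripts and triggers the production of secondary small RNAs that silence foreign sequence. The Ensembl annotation placed 14714 of 15363 piRNA genes on chromosome IV, 14204 of them inside the clusters (2816 in the left and 11388 in the right). An exact match to the core lay 21 to 70 bases upstream of 34.8% of the 14204 genes, with a median start 46 bases upstream. Inexact matches were not counted. Of the genes, 96.2% began with T. A peak in these clusters can therefore sit on a piRNA unit or on a protein-coding gene that shares the neighbourhood, and the values below describe which was nearer.

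The sequences below show what a piRNA unit and a SMA-9 summit look like in these clusters (RefSeq genome, build WBcel235, which is ce11). The first set gives 3 piRNA genes that lay within 200 bp of the summit of a named member, each as 60 bases upstream and the 21 bases of the gene, 5′ to 3′, with the core CTGTTTCA in capitals. They were chosen because they hold an exact match to the core. Others next to named members, such as 21ur-4109 and 21ur-13200, did not. The summit windows beside 21ur-1041 (gln-3) and 21ur-3828 (nhr-46) are printed in the second set, and the one beside 21ur-3774 is not.
21ur-3774, chrIV:17172078-17172158, minus strand: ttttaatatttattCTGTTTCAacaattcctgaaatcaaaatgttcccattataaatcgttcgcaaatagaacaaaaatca
21ur-1041, chrIV:16171312-16171392, plus strand: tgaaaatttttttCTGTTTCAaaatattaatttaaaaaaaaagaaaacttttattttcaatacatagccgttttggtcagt
21ur-3828, chrIV:5766033-5766113, minus strand: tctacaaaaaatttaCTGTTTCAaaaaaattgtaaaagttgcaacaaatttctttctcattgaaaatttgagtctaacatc

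The second set gives the summit base of 10 members with 50 bases on either side (the summit window), each named after the protein-coding gene whose 5′ end was nearest. After the windows had been seen 4 short elements were searched, and capitals mark the piRNA core CTGTTTCA and 3 of these: the E-box CACGTG, the sequence GACGCAG, and the GATA-type element CTTATC, which reads as GATAAG on the other strand. The other element, the repeat GAGAGA, was counted but is left in lower case. The first 2 are the strongest member of each cluster, the next 2 are from the dense runs of peaks at nhr-46 and dmd-6, and the fkh-7 window is the only member window that held the piRNA core. The gln-3 and ugt-20 windows lay within 200 bp of a piRNA 5′ end. The WBGene00194929 window (a gene given by its identifier) is centred 60 bp upstream of a piRNA 5′ end. The last 2, of which the first is named by the identifier WBGene00194930, had the most piRNA genes around them of all members.
ipla-6 peak, chrIV:6336820-6336920, plus strand: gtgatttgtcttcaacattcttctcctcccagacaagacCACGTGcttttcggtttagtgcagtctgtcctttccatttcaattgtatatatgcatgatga
irld-18 peak, chrIV:14594400-14594500, plus strand: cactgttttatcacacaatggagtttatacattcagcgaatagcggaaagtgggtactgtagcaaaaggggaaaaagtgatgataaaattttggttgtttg
nhr-46 peak, chrIV:5765832-5765932, plus strand: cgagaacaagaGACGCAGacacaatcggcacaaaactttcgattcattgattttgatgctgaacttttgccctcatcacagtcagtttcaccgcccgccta
dmd-6 peak, chrIV:14611039-14611139, plus strand: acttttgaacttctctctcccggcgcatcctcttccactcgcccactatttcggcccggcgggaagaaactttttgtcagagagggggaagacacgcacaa
fkh-7 peak, chrIV:5591254-5591354, plus strand: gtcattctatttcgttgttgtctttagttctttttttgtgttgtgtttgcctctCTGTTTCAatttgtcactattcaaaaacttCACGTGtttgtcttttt
gln-3 peak, chrIV:16171486-16171586, plus strand: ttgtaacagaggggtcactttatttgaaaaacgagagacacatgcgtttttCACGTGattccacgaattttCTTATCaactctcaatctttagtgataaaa
ugt-20 peak, chrIV:6083796-6083896, plus strand: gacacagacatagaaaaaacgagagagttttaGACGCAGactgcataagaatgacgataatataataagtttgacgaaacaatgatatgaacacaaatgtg
WBGene00194929 peak, chrIV:16181065-16181165, plus strand: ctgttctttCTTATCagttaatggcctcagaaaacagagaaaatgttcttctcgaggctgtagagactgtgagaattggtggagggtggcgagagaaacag
WBGene00194930 peak, chrIV:15393334-15393434, plus strand: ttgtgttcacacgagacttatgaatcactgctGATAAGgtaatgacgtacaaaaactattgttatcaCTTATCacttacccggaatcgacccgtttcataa
ent-4 peak, chrIV:13728022-13728122, plus strand: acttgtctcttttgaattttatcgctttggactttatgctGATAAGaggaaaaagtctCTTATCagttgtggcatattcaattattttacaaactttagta

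Counting these letters over all members gave 1 window of 257 with the piRNA core (0.389%, 95% Wilson interval 0.0687 to 2.17%). Among all IDR peaks the share was 0.51%, and in the rest of chromosome IV it was 4 of 765. Of the abutting windows of that length that tile the clusters, 7.41% held the core (4.99% in the left cluster and 9.04% in the right). The right cluster had 0 of 92 windows with the core, where a limit of 3 counts allows a share of up to 3.26% and the Wilson interval ends at 4.01%. Summit windows were richer in G and C than their surroundings, with a median of 42.6% against 31.7% for the tiled windows. Tiled windows brought to the G and C content of the summits, in steps of 5 percentage points, held the core in 1.81%, which lies inside the interval of the members.

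The 4 elements chosen after the windows were seen were searched on both strands, and none of them contains another or the piRNA core. The most frequent was the repeat GAGAGA, in 78 of the 257 member windows (30.4%, interval 25.1 to 36.2%). It stood in 27.2% of the summit windows in the rest of chromosome IV and in 9.07% of tiled cluster windows with at least 40% G and C. The E-box CACGTG stood in 19 of the 257 member windows (7.39%, interval 4.78 to 11.26%), in 9.80% of those in the rest of chromosome IV, and in 3.11% of tiled cluster windows with at least 40% G and C. GACGCAG stood in 32 member windows (12.5%, interval 8.96 to 17.1%), against 9.80% in the rest of the chromosome and 2.06% of the GC-rich tiled windows. The GATA-type element CTTATC stood in 26 (10.1%, interval 6.998 to 14.4%), against 16.1% and 3.52%. The intervals of the members included the share in the rest of the chromosome for GAGAGA, the E-box and GACGCAG, and ended below it for CTTATC. For CTTATC that share has its own interval of 13.65 to 18.85%, which overlaps the interval of the members. A match is a description of letters and not a shown binding site.

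The clusters did not hold peaks at 1 common density. The left cluster had 66 IDR peaks per Mb (95% Poisson interval 56.3 to 76.9), which is 0.974 times the 67.7 per Mb of the rest of chromosome IV (exact interval of the ratio 0.818 to 1.15). The right cluster had 24.9 per Mb (interval 20.04 to 30.5), 0.367 times the rest (0.292 to 0.456). Both clusters taken as 1 region gave a ratio of 0.612 (0.529 to 0.706). These intervals cover counting error only, and peaks are not replicates. The replicates taken alone, each with its 7065 strongest nuclear calls, gave ratios of 0.940 and 0.998 for the left cluster and 0.332 and 0.404 for the right, so both replicates showed the low density of the right cluster and neither showed it for the left.

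**Figure D1:**
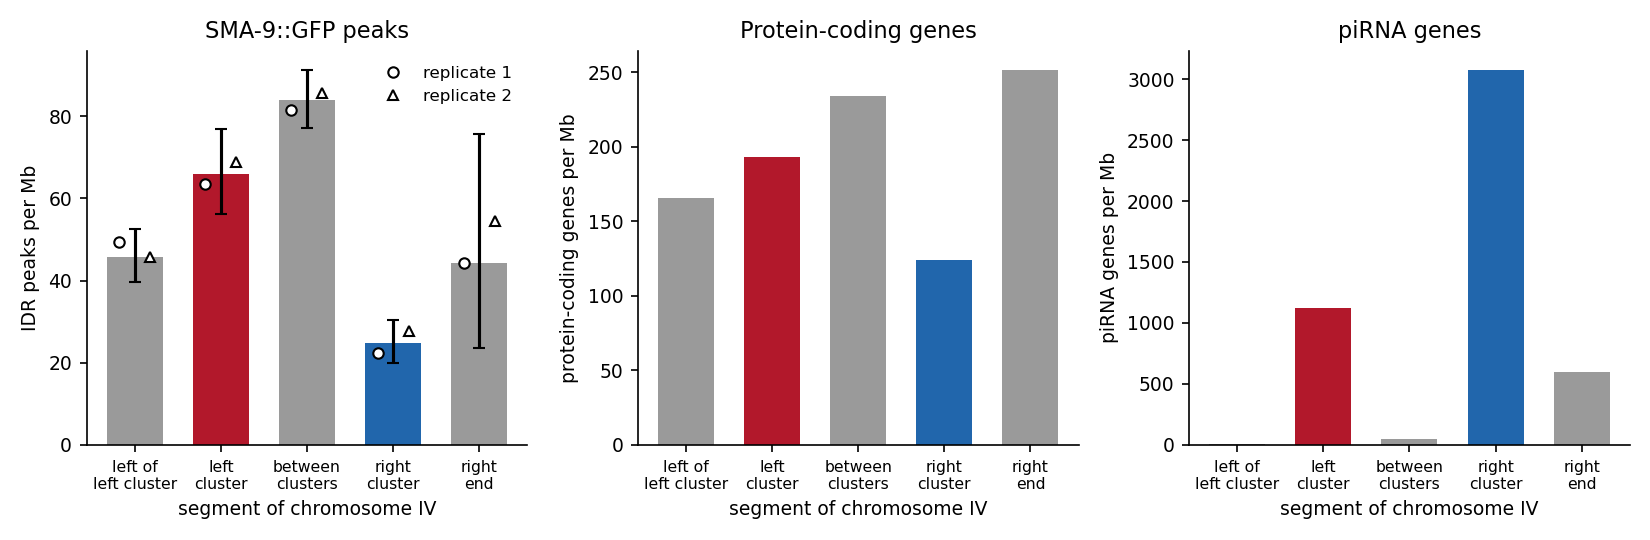
IDR peaks per Mb (left panel; bars with 95% Poisson intervals; circles and triangles give the strongest calls of replicate 1 and 2), protein-coding genes per Mb (middle) and piRNA genes per Mb (right) in 5 segments of chromosome IV. The left cluster (red) stands at 66 peaks per Mb and the right cluster (blue) at 24.9, with 1126 and 3078 piRNA genes per Mb.

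Protein-coding genes were also fewer in the right cluster, with 124 per Mb against 193 in the left and 207 in the rest of the chromosome. Per 100 protein-coding genes the right cluster had 20.04 peaks, the left 34.2 and the rest 32.7, so the right cluster remained the lowest of the 3 on that scale. Its weak calls were sparser still. The pooled list of 30000 calls, which includes background, had 57.3 calls per Mb in the right cluster, 276 in the left and 293 in the rest, and 43.4% of the pooled calls in the right cluster were IDR peaks against 23.9% and 23.1%. The same stretch of relative position on the other 4 autosomes, which carried between 7 and 13 piRNA genes, had 0.315 to 0.831 times the peak density of its own chromosome. For the right cluster that value was 0.426, so chromosome V, at 0.315 with 13 piRNA genes, lay below it. At the relative position of the left cluster the ratios were 1.10 to 1.34 on the other autosomes and 1.13 on IV. Per 100 protein-coding genes, the stretch matching the right cluster had 17.6 peaks on I, 35.1 on II, 31.8 on III and 9.98 on V. Chromosomes I and V thus lay below the 20.04 of the right cluster, as did the right end of IV with 17.6 (13 peaks).

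Within the clusters, peaks and piRNA genes did not follow each other at the scale of 100 kb. Across the 25 bins of the left cluster Spearman's rho between piRNA genes and IDR peaks was 0.0424, and across the 37 bins of the right cluster it was 0.0743. The bins share libraries and chromosome, and the coefficients are descriptions. The bin with the most piRNA genes, 16000001 to 16100000 with 486, held 0 peaks, whereas 14600001 to 14700000, with 407 piRNA genes, held 15. In the left cluster the bin 5800001 to 5900000 had the most piRNA genes, 220, and 2 peaks, and its neighbour 5700001 to 5800000 had 215 and 17 peaks. In all, 11 of the 37 bins of the right cluster and 1 of the 25 of the left held no peak. The longest stretch without a summit ran over 352 kb, from 15039706 to 15391716, and contained 1288 piRNA genes and 47 protein-coding genes.

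**Figure D2:**
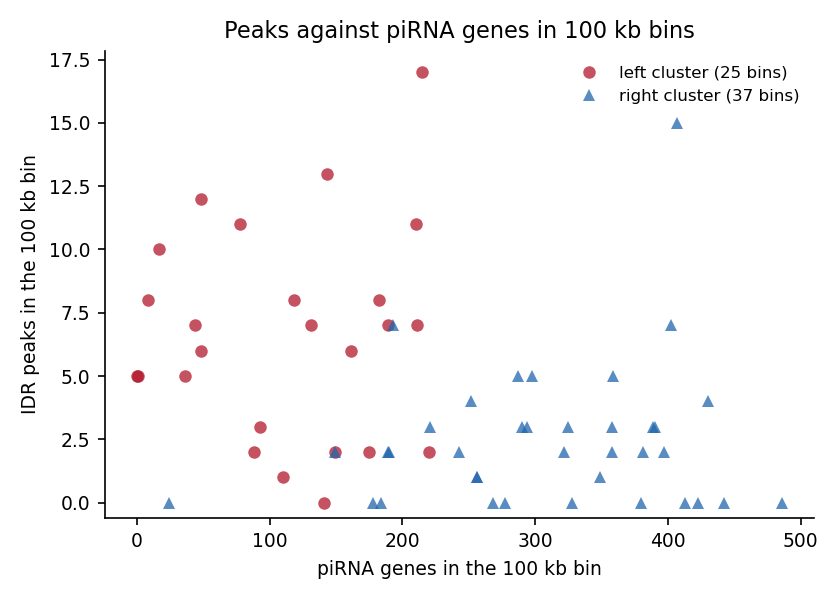
IDR peaks against piRNA genes in each 100 kb bin of the left (red circles) and right (blue triangles) cluster. The bins with 15 and 17 peaks lie at 407 and 215 piRNA genes, and bins with no peak occur up to 486 piRNA genes.

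At the scale of single units, summits were seldom next to a piRNA 5′ end. In both clusters 35 of 257 summits (13.6%, Wilson interval 9.96 to 18.4%) lay within 200 bp of the 5′ end of an annotated piRNA gene, whereas 45.4% of all cluster bases do. The left cluster had 16 of 165 (9.70%, 6.06 to 15.2%) against 29.1% of its bases, and the right cluster 19 of 92 (20.7%, 13.6 to 30.02%) against 56.4%. The strongest calls of the replicates alone gave 11.6% and 16% over both clusters. Calls of the pooled list that did not pass IDR gave 14.4%, close to the members. How well sequencing reads can be placed in sequence dense in piRNA genes, and its part in these shares and in the low density of the right cluster, was not tested. Summits were instead frequent 200 to 400 bp from a piRNA 5′ end, with 23.0% of left and 30.4% of right summits in that range against 14.3% and 12.5% of bases.

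**Figure D3:**
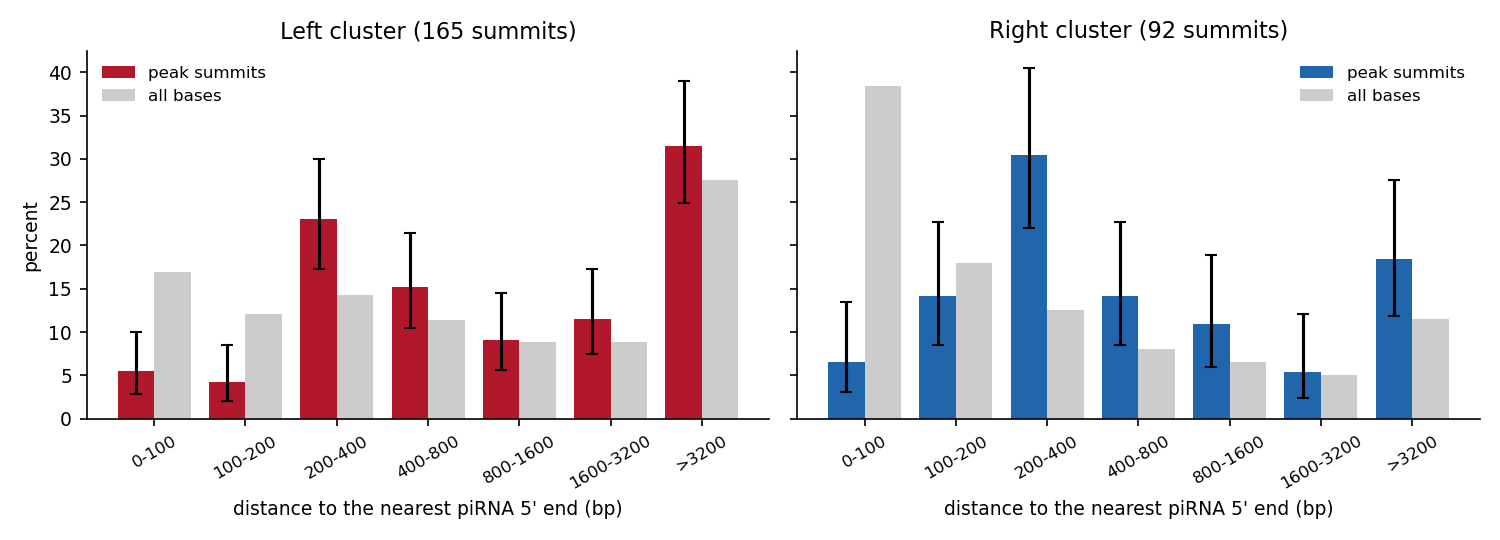
Percent of peak summits (coloured, with 95% Wilson intervals) and of all bases (grey) by distance to the nearest piRNA 5′ end, for the left and right cluster. Within 100 bp the summits stand at 5.46% and 6.52% against 17.0% and 38.5% of bases, and the 200 to 400 bp class stands above its bases in both clusters.

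Base composition moved with this distance. In the right cluster 74.1% of tiled windows under 30% G and C, but 14.6% of those of at least 50%, were centred within 200 bp of a piRNA 5′ end, while 68 of the 92 summit windows had at least 40%. Tiled windows brought to the G and C content of the summits were that near in 23.1% over both clusters, in 15.5% in the left and in 27.4% in the right. The members' share of 13.6% lay below the first value and its interval did not reach it. Of the clusters taken singly, the left interval ended just under 15.5% and the right interval included 27.4%. Among summits with at least 40% G and C, 8 of 105 in the left cluster (7.62%, 3.91 to 14.3%) and 7 of 68 in the right (10.3%, 5.08 to 19.8%) were near a piRNA, against 10.9% and 23.4% of tiled windows. The pooled shares of bases and windows weigh the clusters by length, 2.5 Mb left and 3.7 Mb right, whereas 165 of the 257 members are left. The gap between pooled values therefore holds this mix of clusters as well. Matching for base composition lowered the share to compare with from 29.1% to 15.5% in the left cluster and from 56.4% to 27.4% in the right. In the pool it fell from 45.4% to 23.1%. The matched comparison was chosen after the data were seen.

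**Figure D4:**
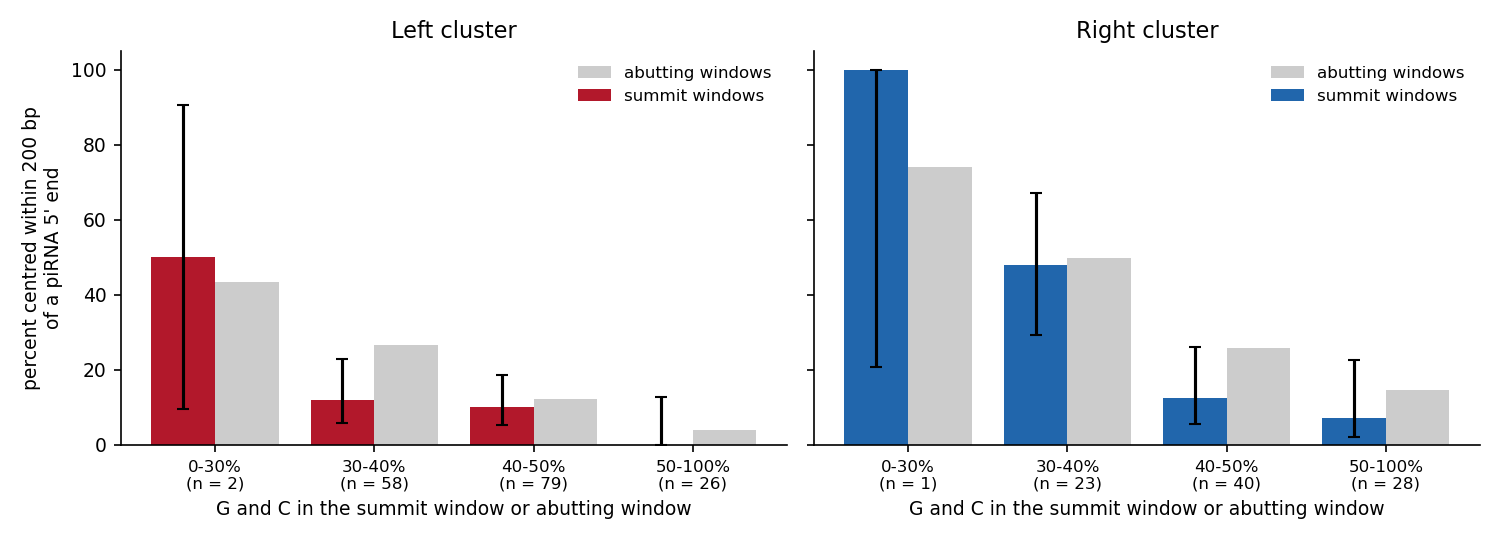
Percent of summit windows (coloured, with 95% Wilson intervals and their number) and of abutting windows of the same length (grey) whose centre lay within 200 bp of a piRNA 5′ end, by the G and C content of the window. The grey bars fall from 43.4% to 4.07% in the left and from 74.1% to 14.6% in the right cluster as G and C rises, and the lowest class holds only 2 and 1 summits.

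Seen from the genes, 59 of the 14204 cluster piRNA genes had an IDR summit within 200 bp (0.415%, 0.322 to 0.535%). The share was 0.579% of all 15363 piRNA genes, most of which are these same cluster genes. It was 0.923% in the left and 0.290% in the right cluster. For piRNA genes of chromosome IV outside them it was 2.16% (11 of 510), and for those of other chromosomes 2.93% (19 of 649). Genes with an exact match to the upstream core had a summit near in 14 of 4944 cases (0.283%, 0.169 to 0.475%). Genes without an exact match had one in 45 of 9260 (0.486%, 0.363 to 0.650%), and the intervals overlap. Of the 35 summits within 200 bp, 9 lay upstream of the nearest piRNA 5′ end and 26 at it or downstream, whereas bases this near divide almost evenly, with 50.4% upstream. Of the 35, 3 lay 20 to 70 bp upstream, the stretch in which the core usually stands and which holds 17.7% of the bases this near. No interval was taken for this small count, and it is not read as a difference.

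The strongest of the 35 was the WBGene00194929 member printed above, at 16180850 to 16181224, with the summit 60 bp upstream of 21ur-13200. Its signal, a score of the authors' caller with no fixed range, was 182.8 in replicate 1, 211.7 in replicate 2 and 378.5 in the list from both replicates, whose scale is its own. It was intergenic, with 10 piRNA 5′ ends within 1000 bp. A weaker member near the same gene, at 16178577 to 16178698, had 116, 75.4 and 190.7 and lay 62 bp downstream of the 5′ end of 21ur-3369. The member 86 bp past 21ur-4109 stood 246 bp upstream of ugt-20, which encodes a UDP-glycosyltransferase, with values of 178.3, 161 and 343.4. The member 87 bp upstream of 21ur-11261 lay 26 bp upstream of the 5′ end of hda-6, a histone deacetylase gene, with values of 141.3, 81.5 and 226.1. Near gln-3, which encodes a glutamine synthetase, the member 164 bp past 21ur-1041 had 90.8, 123.5 and 219.3. At sqrd-1, the gene of a sulfide:quinone oxidoreductase, a member 43 bp upstream of the gene and 142 bp past 21ur-10600 had 95.5, 55.3 and 158.5. Several of these summits next to piRNA genes were thus also within 1000 bp upstream of a protein-coding gene.

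The remaining ones named by the same rule were intergenic or intronic. At C52D10.3 a member 145 bp past 21ur-3774 had 154.6 in replicate 1, 85.9 in replicate 2 and 239.6 in the joint list. At nhr-46 an intronic member 83 bp upstream of 21ur-13379 had 98.3, 114.8 and 221.3, and an intergenic member 171 bp past 21ur-3828 had 120, 79.9 and 191. The member named after K02B2.6 lay 44 bp past 21ur-5229 and within 200 bp of the tRNA gene B0350.t1, with 84.1, 63.1 and 147. A tRNA gene lay within 200 bp of 10 of the 257 members. The same share was not counted for other peaks or for bases, so it is not read as a trait of the members.

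The members with the most piRNA genes around them were mostly weak. At WBGene00194930 an intergenic member had 21 piRNA 5′ ends within 1000 bp and values of 64.2, 72.8 and 134. At ent-4, the gene of an equilibrative nucleoside transporter, a member with 17 had no replicate 1 call at its summit, 74.9 in replicate 2 and 85.2 in the joint list. The member at Y57G11C.38, with 16, had 61.0, 24.4 and 83.6. Next by count in the right cluster came members named after Y105C5A.1 and dmd-6, with 15 each and joint signals of 261.9 and 230.4. They were added with their values in view. In the left cluster the highest counts were 12 at an intronic fkh-7 member (75.4, 65.9 and 140.6), 10 at Y4C6B.2 (39.9, 33.9 and 66.4) and 10 in an intron of unc-5, the netrin receptor gene (34.4, 32.5 and 66.0). At the other end, 109 of the 257 members (42.4%) had no piRNA 5′ end within 1000 bp, 81 of them in the left cluster and 28 in the right. At least 1 lay that near for 57.6% of members and 70.6% of cluster bases. In the left cluster the shares were 50.9% (43.4 to 58.4%) and 57.7% of bases, which lies inside the interval. In the right cluster they were 69.6% (59.5 to 78.03%) and 79.2%.

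Members were less often close to a protein-coding 5′ end than peaks in the rest of the chromosome, with the lower share in the right cluster and overlapping intervals for the left. A summit lay within 1000 bp of a protein-coding 5′ end for 119 of 257 members (46.3%, 40.3 to 52.4%), against 33.8% of cluster bases. The rest of chromosome IV gave 57.8% (54.3 to 61.2%) against 44.0% of bases. The left cluster had 52.1% (44.5 to 59.6%) against 41.5% of its bases, and the right 35.9% (26.8 to 46.1%) against 28.65%. Over 2000 bp from any protein-coding 5′ end lay 46.7% of right members, against 52.4% of right-cluster bases. In the rest of the chromosome 22.8% of peaks and 32.7% of bases lay that far. Bases as well as summits were thus farther from protein-coding 5′ ends in the right cluster. Trans-splicing sets many of the annotated 5′ ends, so these distances are not measured from where transcription begins.

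By annotation 75 members lay in the 1000 bp upstream of a protein-coding gene (29.2%, against 10.4% of cluster bases), 68 in introns (26.5% against 29.3%), 100 in intergenic sequence (38.9% against 40.2%) and 5 in coding exons (1.95% against 17.0%). In the rest of chromosome IV 27.1% of summits were intergenic, against 22.4% of bases. The last 9 members lay in other exon parts of protein-coding genes. The piRNA 5′ ends of the clusters were themselves 53.5% intergenic, 34.1% intronic and 9.36% upstream. Within each of the large classes summits were less often near a piRNA than the bases of that class. In introns the shares were 10.3% of summits and 46.8% of bases, in upstream sequence 12% and 43.1%, and in intergenic sequence 19% and 56.1%.

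Counted by gene, an IDR summit lay within 1000 bp of a 5′ end of 130 of the 941 protein-coding genes in the clusters (13.8%, 11.8 to 16.2%), while 20.2% of the 19973 nuclear protein-coding genes were bound by this rule. The left cluster stood near that background with 94 of 482 (19.5%, 16.2 to 23.3%), as did the rest of chromosome IV with 19.8%. The right cluster had 36 of 459 (7.84%, 5.72 to 10.7%).

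Among the 10 strongest members of each cluster, 1 had its summit within 200 bp of a piRNA 5′ end, the WBGene00194929 member of the right cluster given above. In the left cluster the strongest, at 6336708 to 6337057, lay 783 bp upstream of ipla-6, a gene of the calcium-independent phospholipase A2 family, and was the 13th of the 7065 by signal. It had 900.6 in replicate 1, 547.5 in replicate 2 and 1436 in the joint list, and the nearest piRNA 5′ end was 5928 bp away. Next came Y17G9B.5, with 694.3, 472.2 and 1163 and a summit 165 bp upstream of the gene. The trehalase gene tre-2 held 2 of the 10, the one at 6881239 to 6881567 with 630.3, 436 and 1068 and the one at 6878995 to 6879228 with 485.2, 342.2 and 816.8. An intron of lag-1, which encodes the DNA-binding effector of Notch signalling, had 360.9, 288.1 and 638. The intergenic member closest to lip-1, a MAP kinase phosphatase gene, had 362.9, 273.8 and 632.4, with 3 piRNA 5′ ends within 1000 bp. At sqd-1 and Y73B6BL.29, whose 5′ ends lay 316 and 43 bp from the summits, the joint signals were 627.2 and 602.7. The other 2 of the 10 strongest, the 5th and the 10th by signal, were at nhr-46 and are described with its run of peaks below.

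In the right cluster the strongest member was intergenic at 14594189 to 14594692, 13411 bp upstream of irld-18, the nearest protein-coding 5′ end, with 10 piRNA 5′ ends within 1000 bp and the nearest at 379 bp. Its values were 678.6 in replicate 1, 611.5 in replicate 2 and 1269 in the joint list. The second, intergenic and 6380 bp upstream of Y37A1A.2, had 516.7, 468.4 and 992 and 7 piRNA 5′ ends within 1000 bp. At the promoters of ntl-11, a subunit gene of the CCR4-NOT deadenylase complex, and of dld-1, the gene of dihydrolipoamide dehydrogenase, the values were 361.6, 179.4 and 538.2, and 294.8, 186.2 and 476.2. Their summits lay 132 and 239 bp upstream of the 5′ ends. Y37A1B.7 had 297.7, 162.1 and 449.8, and an intron of Y57G11C.22 had 214.2, 166.1 and 377.1. Of the 10 strongest members of the right cluster, 3 were upstream of dmd-6, which encodes a protein with a DM DNA-binding domain.

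Some members stood in runs around a single gene, and how common such runs are outside the clusters was not counted. Named by the nearest protein-coding 5′ end, the 257 members fell to 163 genes, 122 of them with 1 member and 8 with at least 4. The gene dmd-6 had 16, between 14599367 and 14622516, which is 17.4% of all members of the right cluster within 23.2 kb. Of these, 12 lay upstream of the gene and 4 in its introns, and the run contained 86 piRNA genes. Their joint signals ranged from 71.4 to 548.8 with a median of 129.3. The strongest, at 14610910 to 14611268, had 271.8 in replicate 1 and 291.5 in replicate 2, and the next 2 had 269.2 and 227.4, and 164.4 and 238. A summit lay in calls of both replicates for 13 of the 16, and 4 of the 16 were within 200 bp of a piRNA 5′ end.

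In the left cluster the nuclear hormone receptor gene nhr-46 had 13 members between 5748667 and 5766016, a run of 17.4 kb with 39 piRNA genes. The strongest, at 5764434 to 5764707, was intergenic with 386.8 in replicate 1, 276.5 in replicate 2 and 657.7 in the joint list, and its summit was 272 bp past the 5′ end of 21ur-11799. The next, in an intron at 5754035 to 5754337, had 261.9, 248.2 and 499.5. The forkhead gene fkh-7 had 9 members over 26.7 kb with 83 piRNA genes, and its joint signals ranged from 106.1 to 420.8. None of these 9 summits lay within 200 bp of a piRNA 5′ end, and the nearest was at 205 bp. One of them, at 5591170 to 5591458, is the member whose window held the piRNA core. It had 187.3 in replicate 1, no replicate 2 call at the summit and 305.1 in the joint list, and lay 292 bp from 21ur-8200.

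Other runs had few piRNA genes in them. The gene skn-1, which encodes a transcription factor of stress defence and endoderm fate, had 6 intronic members with joint signals of 77.9 to 326 in 6.63 kb that contained 0 piRNA genes. The run at tre-2 contained 0 as well, that at the Raf kinase gene lin-45 had 1, and that at the JNK kinase gene jnk-1 had 3. At gln-3, 5 members spanned 4.95 kb with 12 piRNA genes, and 3 of their summits were within 200 bp of a piRNA 5′ end, 27 bp for the nearest. The runs with many piRNA genes and those with few both reached high signals. Genes of runs that are not among those named by signal were picked with their values in view.

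The members covered much of the range of signal of the other peaks. Their median joint signal was 118.2 (95% order-statistic interval 107 to 131.7), 108.7 (98.4 to 122.7) in the left and 137.3 (118.2 to 149.3) in the right cluster, and 112.9 (108 to 120.1) in the rest of chromosome IV. They ranged from 62.5 to 1436, with 24 among the 500 strongest peaks of the genome (9.34%, against 6.41% of the peaks in the rest of the chromosome). Next to the bounds that chose the members, the summits at 4506885 and 6959694 were the outermost inside the left cluster, with signals of 75.2 and 72.9, and those at 4486940 and 7016751 the first outside, with 89.8 and 188.2. For the right cluster the outermost inside were at 13609958 and 17174283, with 129.4 and 203.3, and the first outside at 13396639 and 17245407, with 135.2 and 310.8.

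Between the replicates, the summit lay inside a call of both for 235 of the 257 members (91.4%, 87.4 to 94.3%), against 95.2% of all 7065 IDR peaks and 94.9% in the rest of chromosome IV. The left cluster had 157 of 165 (95.2%, 90.7 to 97.5%) and the right 78 of 92 (84.8%, 76.1 to 90.7%). In the right cluster 13 of the 14 exceptions had a call at the summit only in replicate 2 and 1 only in replicate 1. A replicate 1 call covered at least part of 3 of these 14 peaks, the 1 with a replicate 1 summit call included. The 14 had joint signals of 64.3 to 209.2, with a median of 85.3, and 5 of them were within 200 bp of a piRNA 5′ end. In the left cluster 7 of the 8 exceptions likewise had a call at the summit only in replicate 2, and a replicate 1 call covered part of 3 of the 8. The rest of the chromosome had 21 peaks with a call at the summit only in replicate 2 and 17 only in replicate 1. Replicate 2 also had more calls in all in the right cluster, 84.9 per Mb against 57.8 in replicate 1. The left cluster had 300.4 against 255.2, and the rest of the chromosome 299 against 298. What set replicate 2 apart in the clusters was not tested. The IDR list was made from both replicates, so these shares are not independent of how the peaks were chosen.

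**Figure D5:**
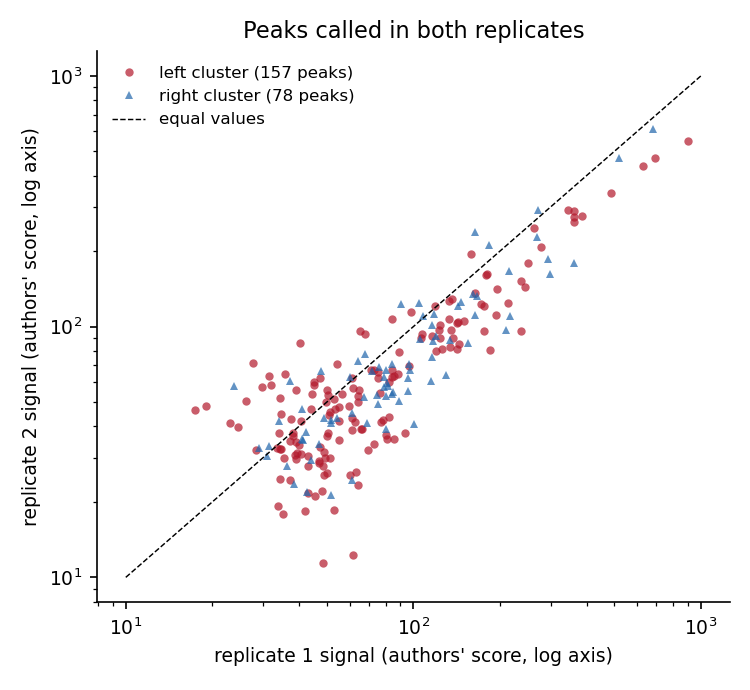
Signal of each member in replicate 1 and replicate 2 (authors' score, log axes) for the 157 left (red circles) and 78 right (blue triangles) members called in both. Most points lie below the dashed line of equal values, and the order of the members is broadly shared, with Spearman's rho of 0.805 over the 235.

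Over the 235 members called in both, the log2 signals gave a Pearson's r of 0.852 and Spearman's rho was 0.805, against 0.743 and 0.701 in the rest of chromosome IV. The points share libraries and the choice of list, and the coefficients are descriptions. Replicate 1 values were the higher ones as a rule, with medians of 71.1 and 57.6, on the scale of each list.

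The genes of the piRNA pathway itself, on all chromosomes, were bound about as often as other genes. Of the 64 listed genes found in the annotation, 13 had an IDR summit within 1000 bp of a 5′ end (20.3%, 12.3 to 31.7%), beside the 20.2% of all protein-coding genes. For piRNA transcription 1 of 10 was bound, snpc-4, which encodes the SNAPc subunit that sits on the piRNA clusters. Its signal was 82.7, with no replicate 1 call at the summit and 19.7 in replicate 2. The forkhead genes fkh-3 and fkh-4 were not bound by this rule, nor was prde-1.

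For piRNA processing 2 of 12 were bound. The gene tofu-1, whose product takes part in precursor cleavage, had 76.7 and no replicate 1 call at the summit. The cap-binding protein gene ife-3 had 65.3 (28.0 and 44.3 in the replicates). The genes erh-2 and henn-1, which encode a precursor-binding subunit and the small RNA methyltransferase, were not bound. Among 21 effector and Mutator genes 7 were bound. The highest was mut-15, a Mutator focus gene, with 225.9 in replicate 1, 123.4 in replicate 2 and 341.1 in the joint list. It was followed by rde-2 (242.6), the endonuclease gene rde-8 (203.4), the RNA-dependent RNA polymerase gene ego-1 (153.5) and its partner ekl-1 (139.1). The nucleotidyltransferase gene mut-2 had 96.3 and the helicase gene rde-12 had 62.2. The Argonaute gene csr-1 and the helicase gene drh-3 were not bound, nor were the Argonaute genes prg-1 and hrde-1.

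Of 13 nuclear silencing genes 3 were bound, nrde-2 with 373.4 (221.9 and 158.3 in the replicates), nrde-4 with 126.1 and mep-1 with 91.5. The splicing-associated helicase gene emb-4 and the deacetylase gene hda-1 were not. None of the 8 germ granule genes was bound (0%, Wilson interval up to 32.4%), deps-1 and the Vasa-like helicase gene glh-1 among them. The absence of a call is not a measure of the gene's activity. The genes prde-1, prg-1 and hrde-1 were singled out with their values in view.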

How the data were processed

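SMA-9::GFP ChIP-seq peaks of whole L2 larvae were analysed as the authors deposited them, in 8 lists, 4 for ce10 and 4 for ce11. Per the file headers, the lists of peaks and background of the 2 replicates and their pool were the input for IDR. The deposited signal of each peak is the authors' score, and the deposited −log10 q-value is capped and was not used to rank. Which aligner, caller and IDR cut-off were used is not given in the sources used here. The lists hold no read counts, so depth is unknown, and having 2 replicates limits the precision. With 1 group no test between conditions was possible.

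Summits were set beside the Ensembl 115 annotation and the RefSeq sequence of WBcel235, with coordinates 1-based on ce11, in Python 3.11.15 with numpy 2.4.6, pandas 2.3.3, scipy 1.17.1 and matplotlib 3.10.9. Intervals are 95% Wilson, exact Poisson, exact conditional or order-statistic intervals and cover counting error only. The distance and motif counts were tested on simulated data. A replicate's strongest calls are its 7065 nuclear calls of highest signal. A gene was bound if a summit lay within 1000 bp of any annotated 5′ end. Named members are the 10 strongest of each cluster, the 5 strongest within 200 bp of a piRNA 5′ end, the 3 with the most piRNA 5′ ends within 1000 bp and any with the motif. Named pathway genes are the bound ones and the first 2 unbound by name. Listed symbols not found in the annotation (tofu-3, prg-2, wago-3 and rde-3) were left out. The members and gene lists were chosen with earlier results of these data known. Alternatives were another distance, window, list, bound or build, and each replicate alone.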

Additional observations from a re-analysis of the deposited data

How the results depend on the processing

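With both clusters taken as 1 region, the ratio of peak density to the rest of chromosome IV kept its direction under all 5 alternatives, from 0.577 to 0.654. The alternatives of signal, bounds and build are given for that region only. The left cluster alone stood at 0.974 (0.818 to 1.15), so this direction does not describe it. The share of summits near a piRNA 5′ end followed the distance, with 5.84% at 100 bp, 44.4% at 500 bp and 57.6% at 1000 bp, each below the 29.8%, 61.9% and 70.6% of bases. It was 8.67% for summit windows of at least 40% G and C, an alternative added after the data were seen, and the motif share was then 0%. The share near a protein-coding 5′ end was 34.6% at 500 bp, 65.4% at 2000 bp and 40% with bounds drawn in by 0.5 Mb at each end. The share in both replicates was 95.04% among the stronger members (signal above the median of the list) and 72.4% among the strongest calls of each replicate. The median signal was 200.5 among the stronger members by construction, and 54.9 to 70.4 in the replicates' own lists, whose scale differs. The share of piRNA genes near a summit was 0.176% with these stronger peaks alone, which are fewer, and 0.127%, 2.30% and 5.12% at 100, 500 and 1000 bp. The other alternatives stayed within the intervals given. No paired analysis was possible because there is 1 group. Unknown depth means that a missing call cannot be read as missing binding.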
